A study of Mus musculus with 10 samples.

Results

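Astrocyte-enriched genes were followed in cultured mouse hippocampal cells given tunicamycin, a drug that blocks N-linked glycosylation and so causes proteins to misfold in the endoplasmic reticulum (ER). The group holds 34 genes chosen by name for their known enrichment in astrocytes, of 48709 gene identifiers in the count tables, and all 34 were found there. The cells were primary hippocampal neurons at 10 days in vitro, and polyadenylated RNA was sequenced. One group of 6 libraries came from cultures given tunicamycin at 2 ug/mL for 6 h, and the other of 4 libraries from cultures given DMSO, the solvent, for the same 6 h. The comparison asks which transcripts of such cultures differ under ER stress. Neither the labels of the tunicamycin libraries nor those of the DMSO libraries name a strain, an age, a genotype or a number of animals, and none says that the libraries of a group are separate cultures. The p-values therefore rest on the spread among libraries, and that spread may be technical. Depth was 21055289 to 29234887 counts per library.

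Astrocytes are the glial cells that surround synapses and vessels. They clear glutamate and potassium released by neurons, turn glutamate into glutamine, and move water and ions through channels and gap junctions that link them into a network. They also secrete lipid carriers and matrix proteins, and they carry an intermediate filament skeleton whose hallmark is GFAP. Cultures of hippocampal neurons usually keep some astrocytes, and several of the 34 genes are also transcribed by neurons, microglia or neural progenitors. The libraries held whole cultures, so a smaller number of astrocytes and less RNA per astrocyte cannot be told apart.

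The cultures carried markers of both kinds of cell. The 34 genes summed to 5869 to 6368 counts per 1e6 counts of the library (CPM) in the tunicamycin libraries and 8194 to 8999 CPM in the DMSO libraries, which is 0.612 ± 0.017% of all counts with tunicamycin (SD, n = 6) and 0.863 ± 0.040% with DMSO (SD, n = 4). The 15 pan-neuronal genes summed to 8331 to 8778 CPM with tunicamycin and 10003 to 10404 CPM with DMSO. The ER stress response was present in the tunicamycin libraries. Hspa5, which encodes the chaperone BiP, rose to 3211 ± 149.8 CPM with tunicamycin, against 613 ± 44.6 CPM with DMSO, and Ddit3, which encodes the stress factor CHOP, had a log2 fold change of 2.93.

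Astrocyte-enriched genes fell almost as a whole. Of the 34, 33 passed the expression filter, 30 were lower with tunicamycin, 1 was higher and 2 were not called at an adjusted p under 0.05 in edgeR's quasi-likelihood test. Of all 15660 genes tested, 32.5% were called lower, 31.8% higher and 64.3% in either direction, so a call alone is common in these data. The falls were larger than most. The median log2 fold change was -0.54 over the 33 genes and -0.02 over all genes tested. A called fall of at least 1.5-fold was found for 16 of the 33 (48.5%), and for 8.1% of all genes. In 27 of the 33 (81.8%) every tunicamycin library lay below every DMSO library, as in 23.9% of all genes. Only F3, the gene for tissue factor, was called higher. The authors' deposited tables hold 32 of the 34, with 31 in the lower list and F3 in the higher one.

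**Figure D1:**
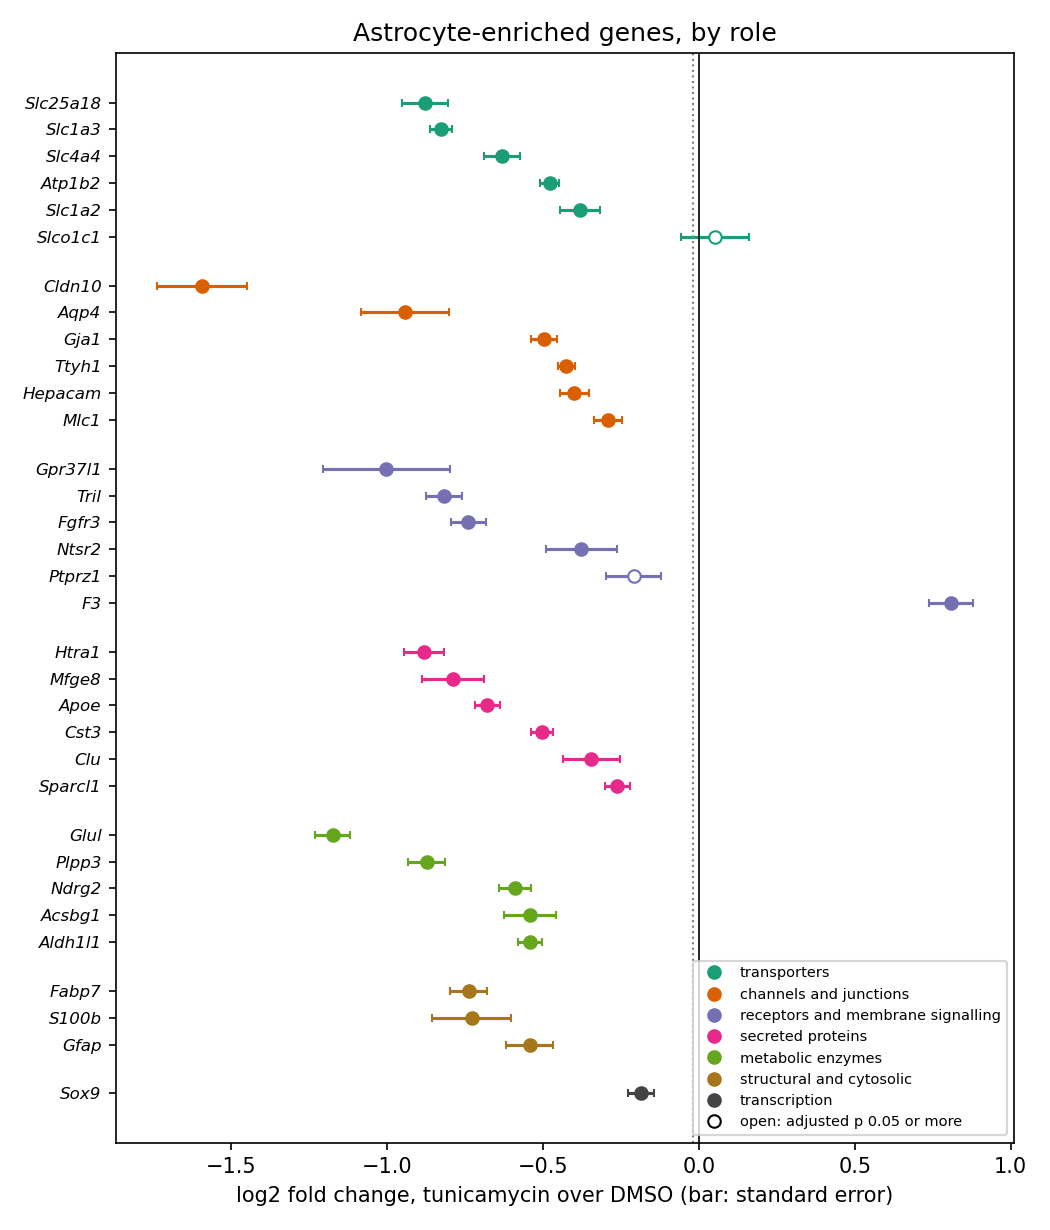
Log2 fold change (tunicamycin over DMSO, edgeR) of the 33 tested genes, grouped by role, with the standard error as bars. Filled points passed the test, open points (Slco1c1 and Ptprz1) did not, the dotted line is the median of all genes tested at -0.02, and F3 at 0.81 is the one filled point right of 0.

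**Figure D2:**
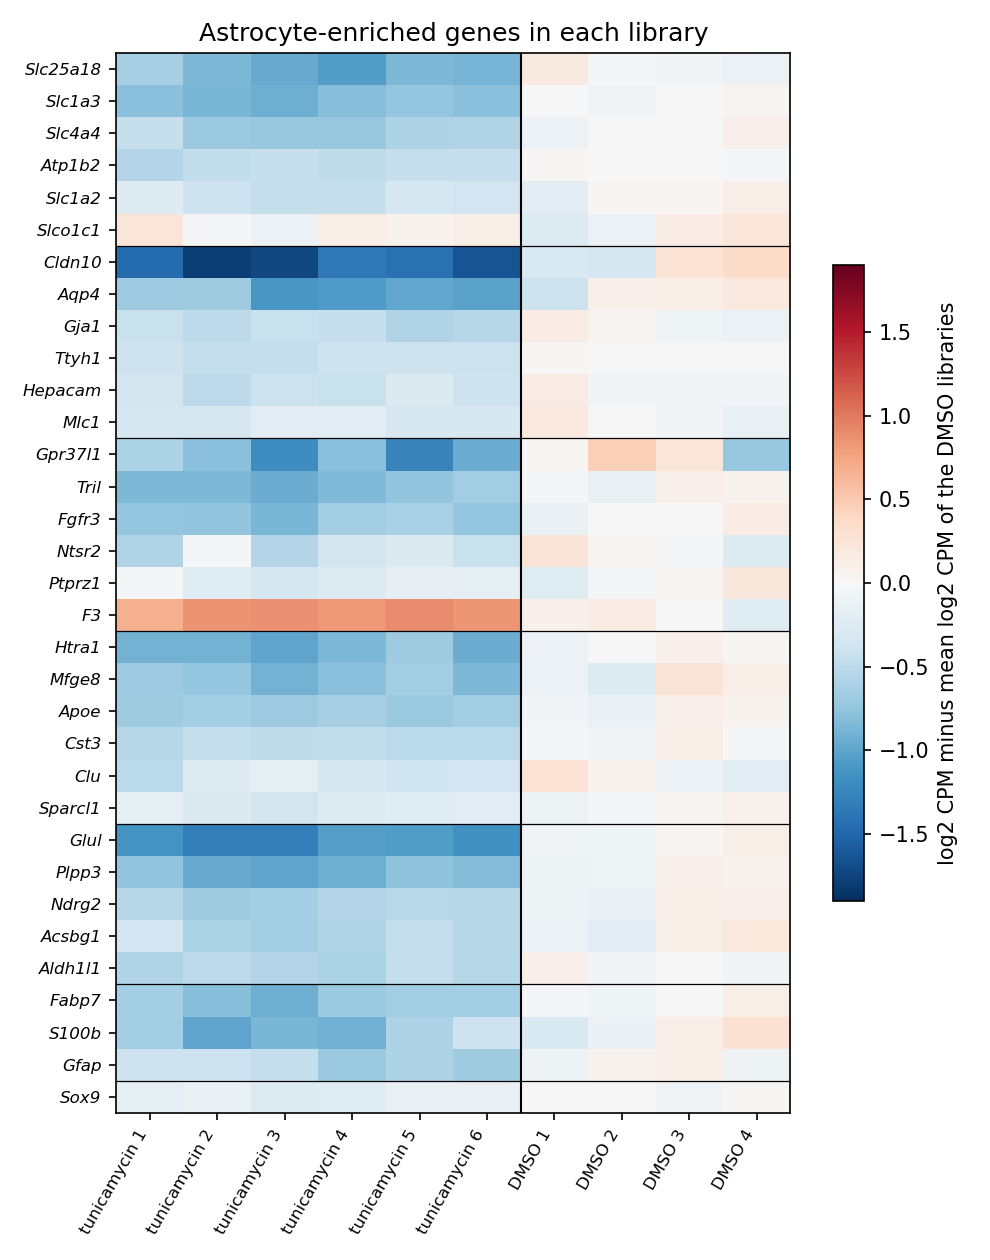
Log2 CPM of each tested gene in each library, minus its mean over the DMSO libraries, with the 6 tunicamycin libraries left of the 4 DMSO libraries and lines between the roles. Blue runs through all 6 tunicamycin columns for most genes, and F3 is red in all 6.

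The single riser was set beside a strong faller and the hallmark gene at the level of the promoter. The 250 bases before the start of transcription are shown for F3 (chr3:121723287-121723536, plus strand), for Slc1a3 (chr15:8710808-8711057, minus strand), whose fall had the smallest p of the 34, and for Gfap (chr11:102897201-102897450, minus strand). The sequences are those of RefSeq on GRCm38.p6, read 5′ to 3′, and capitals mark matches to the motifs described after them.
F3: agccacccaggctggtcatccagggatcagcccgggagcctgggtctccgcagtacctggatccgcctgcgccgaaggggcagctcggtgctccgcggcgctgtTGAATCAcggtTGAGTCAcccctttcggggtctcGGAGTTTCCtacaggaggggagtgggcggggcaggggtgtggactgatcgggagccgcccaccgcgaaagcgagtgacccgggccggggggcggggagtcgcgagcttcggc
Slc1a3: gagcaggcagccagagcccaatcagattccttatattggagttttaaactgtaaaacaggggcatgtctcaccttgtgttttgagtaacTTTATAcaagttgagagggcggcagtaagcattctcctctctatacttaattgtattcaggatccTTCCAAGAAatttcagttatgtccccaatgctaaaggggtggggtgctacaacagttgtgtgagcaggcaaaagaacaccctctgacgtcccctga
Gfap: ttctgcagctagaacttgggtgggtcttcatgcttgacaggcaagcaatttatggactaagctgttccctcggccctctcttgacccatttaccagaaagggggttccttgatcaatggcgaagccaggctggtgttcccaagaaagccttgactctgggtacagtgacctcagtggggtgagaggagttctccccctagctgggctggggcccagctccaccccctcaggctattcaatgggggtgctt
Searched on both strands were 12 motifs, chosen with the results known, and a match describes letters, not binding. In the F3 window TGANTCA, the site of the AP-1 factors Fos and Jun, occurs from positions -146 and -135 relative to the start, and GGANTTTCC, a form of the NF-kB site, from -112. In all 32851 windows of this length TGANTCA was found in 6.75% and GGANTTTCC in 1.07%. The start used for Gfap lies inside the GENCODE gene model, whose end is farther upstream. The F3 window also lies over an exon of the gene model Gm43823. The Slc1a3 window holds the STAT motif TTCNNNGAA at -96 (7.02% of windows) and TATAAA on the other strand at -161 (12.4%). None of the 12 was found in the Gfap window, the 8 others being TGACGTCA of cAMP response elements (1.55%), TGATGNAA of ATF4 and CHOP (3.45%), the ER stress element (0.113%), TGACGTGG of XBP1 (0.563%), the full palindrome of the NFI factors (0.0365%) and its shorter form TTGGCA (12.3%), AACAAT of SOX factors (9.42%) and GCGNGGGCG of EGR factors (4.7%). RefSeq windows were matched for 29 of the 34 genes, 36 windows in all, and not for Atp1b2, Aqp4, Clu, Sparcl1 and Sox9. Among these 36 windows TGANTCA occurs in that of F3 and that of Gja1, TGATGNAA in 1 of Apoe, and the ER stress element in none.

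Among the transporters 5 of 6 fell, and their median log2 fold change was -0.56. Slc1a3 encodes GLAST, a glutamate transporter of the astrocyte membrane (ENSMUSG00000005360, chromosome 15, 8634124 to 8710764, GRCm38). It had 456 CPM at the lowest, 497 at the median and 523 at the highest of the 6 tunicamycin libraries, and 867, 827, 873 and 902 CPM in DMSO libraries 1 to 4. The groups were far apart, with a fold change on the log2 scale of -0.83 ± 0.04 (SE, and edgeR adjusted p = 1.4e-14). Slc1a2, which encodes the other astrocytic glutamate transporter, GLT-1, ranged over 910, 955 and 1046 CPM with tunicamycin, and was at 1070, 1273, 1275 and 1358 CPM with DMSO. Its DMSO replicate 1 stood close to the highest tunicamycin library, and the fall was smaller (log2 -0.38 ± 0.06, edgeR adjusted p = 0.000282).

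Slc25a18, a mitochondrial glutamate carrier, was the transporter with the largest fall. It was at 7.84, 8.96 and 10.6 CPM (lowest, median and highest) with tunicamycin, against 18.5, 16.2, 15.8 and 15.2 CPM with DMSO, with no overlap (log2 -0.88 ± 0.07, edgeR adjusted p = 8.01e-10). The sodium bicarbonate cotransporter gene Slc4a4 fell to 64.6% of its DMSO level (log2 -0.63), and Atp1b2, a beta subunit of the sodium pump, to 71.8% (log2 -0.48). Slco1c1, a transporter of thyroid hormone, did not pass the test. Its levels were 80.1, 93.0 and 102 CPM with tunicamycin, and 72.7, 80.6, 95.9 and 101 CPM with DMSO, so the groups overlapped, with the lowest DMSO library under the tunicamycin range (log2 0.05 ± 0.11, edgeR adjusted p = 0.706). The DMSO values differed by sequencing lane, the lower ones being libraries 1 and 2 of lane 1. Its log2 fold change was 0.291 in lane 1 alone, -0.157 in lane 2 and -0.129 in lane 3, the last 2 lanes holding a single DMSO library each.

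**Figure D3:**
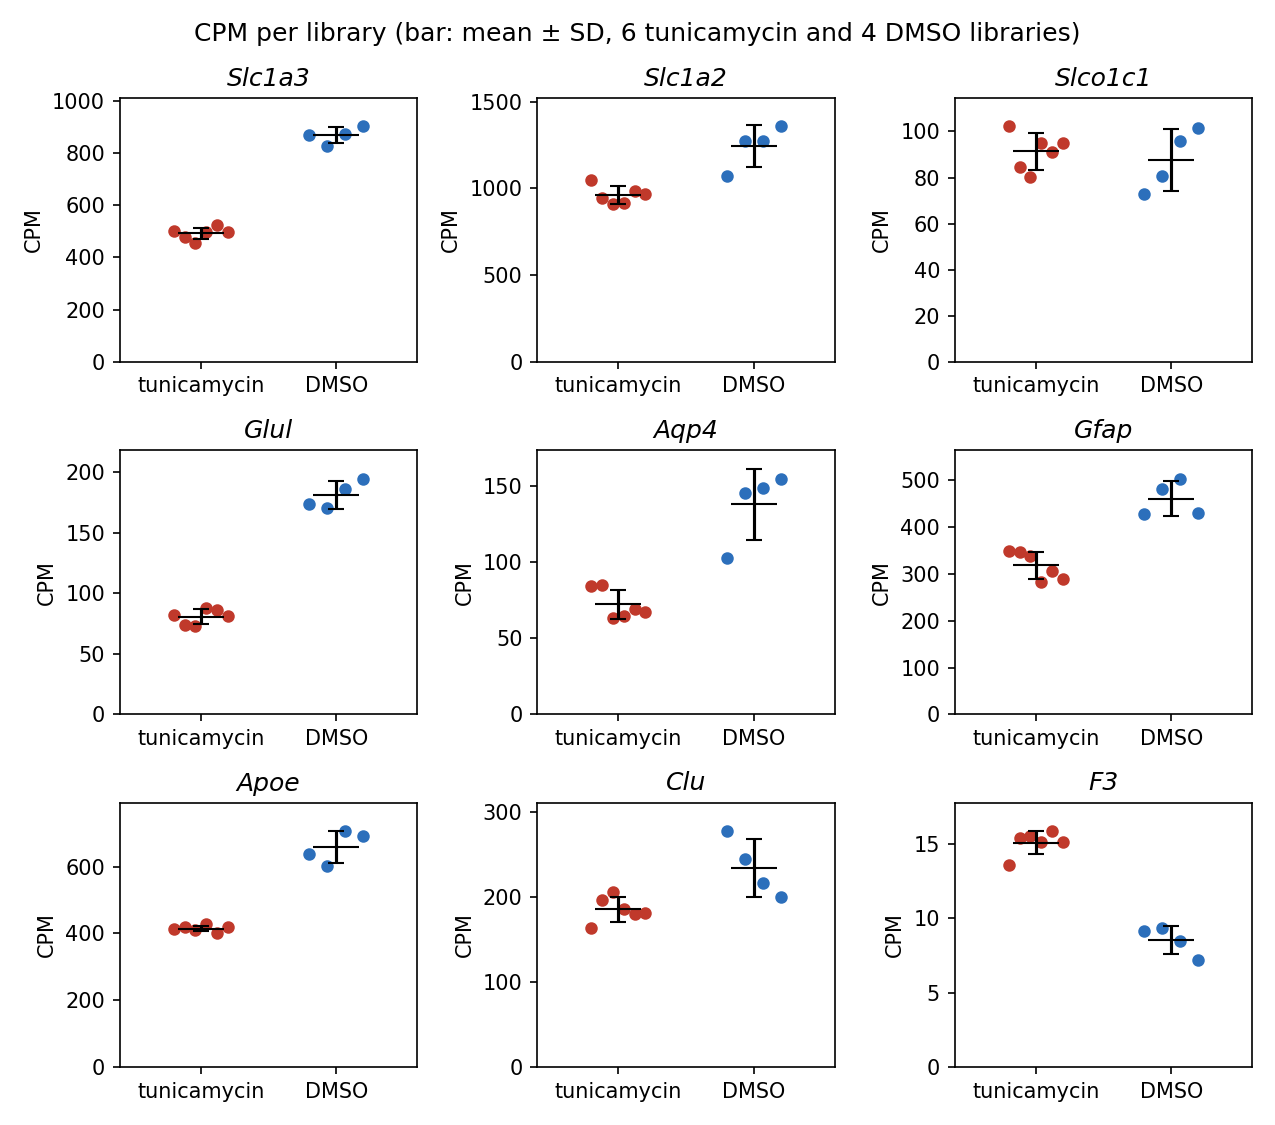
CPM of 9 genes in each library, the 6 tunicamycin libraries left of the 4 DMSO libraries, with mean and SD as black bars and each axis from 0. The groups overlap for Slco1c1 and Clu, and lie apart for Slc1a3, Slc1a2, Glul, Aqp4, Gfap, Apoe and F3.

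All 6 tested genes of channels and junctions were lower (median -0.46 on the log2 scale). Cldn10, a claudin of tight junctions (ENSMUSG00000022132, chromosome 14, 118787908 to 118875489), fell the most of the 33. Its levels were low, 2.01, 2.37 and 2.71 CPM with tunicamycin and 5.68, 5.58, 8.30 and 8.84 CPM with DMSO. No library of either group came near the other, and the level with tunicamycin was 33.1% of that with DMSO (log2 -1.59 ± 0.14, edgeR adjusted p = 1.27e-08). That is the 56th largest fall of all genes tested. Aqp4, the water channel of astrocyte endfeet, stood at 72.1 ± 9.70 CPM with tunicamycin and 138 ± 23.6 CPM with DMSO (log2 -0.94 ± 0.14, edgeR adjusted p = 0.000355). In lane 1 alone its log2 fold change was -0.55 and its adjusted p 0.0746.

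The gap junction genes differed in level. Gja1, which encodes connexin 43, was at 101, 109 and 113 CPM with tunicamycin and 166, 156, 142 and 140 CPM with DMSO. Every tunicamycin library lay below every DMSO library (log2 -0.50 ± 0.04, edgeR adjusted p = 1.8e-09). Gjb6, which encodes connexin 30, had 0, 1, 3, 1, 1 and 3 counts in tunicamycin libraries 1 to 6, and 2, 2, 6 and 7 counts in the DMSO libraries. It was the one gene of the 34 below the expression filter, and its counts are too few for a fold.

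The smallest fall of the channel and junction genes was that of Mlc1. This gene, of a membrane protein whose human counterpart is mutated in a leukodystrophy with cysts, was at 178, 181 and 194 CPM with tunicamycin and 255, 223, 216 and 203 CPM with DMSO. The groups did not overlap, and the fall was small (log2 -0.29 ± 0.05, edgeR adjusted p = 1.61e-05). Its binding partner Hepacam, an adhesion protein also called GlialCAM, was at 38.8, 41.5 and 45.2 CPM with tunicamycin and 60.8, 53.1, 53.1 and 52.9 CPM with DMSO. These groups were apart too (log2 -0.40 ± 0.05, edgeR adjusted p = 1.15e-07). Ttyh1, a membrane protein of the tweety family, had little spread, at 220 ± 4.60 CPM with tunicamycin and 294 ± 3.21 CPM with DMSO (log2 -0.42).

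Receptors and membrane signalling proteins held the riser. Tissue factor, encoded by F3 (ENSMUSG00000028128, chromosome 3, 121723537 to 121735048), starts blood clotting and is made by astrocytes in brain. F3 was at 13.5, 15.3 and 15.8 CPM with tunicamycin and at 9.11, 9.35, 8.49 and 7.21 CPM with DMSO. All tunicamycin libraries were above all DMSO libraries, as in 27% of all genes, and the rise was 1.75-fold (log2 0.81 ± 0.07, edgeR adjusted p = 1.64e-09). It was 0.65, 0.83 and 1.10 on the log2 scale in lanes 1, 2 and 3 alone. A called rise of at least 1.5-fold was found for 8.97% of all genes.

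The other receptor genes were lower or not called. Gpr37l1, an orphan receptor, was at 0.686, 0.900 and 1.09 CPM with tunicamycin and 1.69, 2.26, 1.94 and 0.997 CPM with DMSO. DMSO replicate 4 fell inside the tunicamycin range, and the fall was to 49.9% of the DMSO level (log2 -1.004 ± 0.20, edgeR adjusted p = 0.000188). In lane 3, where replicate 4 is the single DMSO library, it was -0.37 on the log2 scale. Fgfr3, a fibroblast growth factor receptor, fell to 59.9% of its DMSO level, and Tril, an accessory protein of Toll-like receptor signalling, to 56.7%. Part of the exonic bases of both lies over another gene model, 13.9% for Fgfr3 and 21.4% for Tril, and reads of the overlapping gene may be included. Ntsr2, a neurotensin receptor, was at 3.94 ± 0.565 CPM with tunicamycin and 5.08 ± 0.729 CPM with DMSO, with overlap (log2 -0.38, edgeR adjusted p = 0.00618). Ptprz1, a receptor phosphatase carried also by progenitors, was at 616 ± 40.9 CPM with tunicamycin and 708 ± 91.5 CPM with DMSO and missed the threshold (log2 -0.21 ± 0.09, edgeR adjusted p = 0.0658). It passed under upper-quartile scaling (log2 -0.32, adjusted p = 0.00655), without DMSO replicate 1 (log2 -0.28, adjusted p = 0.00525) and without tunicamycin replicate 1 (log2 -0.24, adjusted p = 0.0499). Its log2 fold change was 0.0099 in lane 1 alone, -0.356 in lane 2 and -0.389 in lane 3, the last 2 lanes holding a single DMSO library each. The authors' deposited table lists Ptprz1 as lower, with an adjusted p of 0.0302.

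All 6 genes of secreted proteins were lower (median -0.59 on the log2 scale). Apoe, the main lipid carrier that astrocytes release, was at 402, 415 and 427 CPM with tunicamycin and 637, 602, 706 and 693 CPM with DMSO. The tunicamycin libraries lay within a narrow band far below the others (log2 -0.68 ± 0.04, edgeR adjusted p = 3.77e-12). Clu encodes clusterin, a secreted chaperone and the other abundant apolipoprotein here. It was at 163, 184 and 206 CPM with tunicamycin and 277, 245, 216 and 200 CPM with DMSO, so the lowest DMSO library lay inside the tunicamycin range (log2 -0.35 ± 0.09, edgeR adjusted p = 0.00808).

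Htra1, a secreted serine protease, fell the most of the secreted group. Its levels were 10.8, 11.6 and 13.6 CPM with tunicamycin and 19.99, 21.6, 23.1 and 21.9 CPM with DMSO, with a wide gap between the groups (log2 -0.88 ± 0.06, edgeR adjusted p = 7.12e-11). Sparcl1, a matrix protein that promotes synapse formation, fell the least. It was at 616, 662 and 692 CPM with tunicamycin and 734, 768, 818 and 832 CPM with DMSO (log2 -0.26 ± 0.04, edgeR adjusted p = 8.99e-06). Mfge8, which marks dying cells for phagocytosis, fell to 57.9% of its DMSO level, and Cst3, the protease inhibitor cystatin C, to 70.6%.

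All 5 genes grouped here as metabolic enzymes, Ndrg2 among them by its fold, were lower, the median being -0.59 on the log2 scale. Glul encodes glutamine synthetase, which turns glutamate and ammonia into glutamine (ENSMUSG00000026473, chromosome 1, 153899944 to 153909723). It was at 73.4, 81.8 and 87.8 CPM with tunicamycin and 174, 170.3, 187 and 195 CPM with DMSO. The level with tunicamycin was 44.3% of that with DMSO (log2 -1.18 ± 0.06, edgeR adjusted p = 3.4e-11), and no DMSO library was near. Of the 50-base words of Glul, 12.6% also occur in transcripts of other genes, so some of its reads may be shared. Aldh1l1, a folate enzyme used as a pan-astrocyte marker, was at 47.8, 49.6 and 53.1 CPM with tunicamycin and 77.4, 69.8, 73.1 and 69.8 CPM with DMSO (log2 -0.54 ± 0.04, edgeR adjusted p = 5.12e-11), and 13.4% of its exonic bases overlap other gene models. Plpp3, a lipid phosphatase of the cell surface, fell to 54.6% of its DMSO level, Acsbg1, an acyl-CoA synthetase, to 68.7%, and Ndrg2, a protein of the hydrolase fold enriched in astrocytes, to 66.4%.

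The structural and cytosolic genes fell too. Gfap, the intermediate filament protein of astrocytes (ENSMUSG00000020932, chromosome 11, 102887336 to 102900912), was at 282, 321 and 348 CPM with tunicamycin and 428, 480.5, 502 and 430.2 CPM with DMSO. The groups did not overlap (log2 -0.54 ± 0.07, edgeR adjusted p = 8.45e-05). In lane 2 alone, where a single DMSO library stood against 2 tunicamycin libraries, Gfap had a log2 fold change of -0.72 and did not pass, with an adjusted p of 0.17. Fabp7, a fatty acid binding protein of radial glia and young astrocytes, was at 280.4, 332 and 341 CPM with tunicamycin and 521, 501, 537 and 576 CPM with DMSO (log2 -0.74 ± 0.06, edgeR adjusted p = 9.03e-08). S100b, a calcium-binding protein, was at 3.27, 3.87 and 4.99 CPM with tunicamycin and 5.38, 5.99, 7.15 and 7.98 CPM with DMSO, again apart (log2 -0.73 ± 0.13, edgeR adjusted p = 5.72e-05). Sox9, the transcription factor that specifies glia, had the smallest called change of the 33. It was at 36.2, 38.9 and 39.6 CPM with tunicamycin and 43.7, 43.6, 41.2 and 45.1 CPM with DMSO, a narrow gap (log2 -0.19 ± 0.04, edgeR adjusted p = 0.000518).

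Per kilobase of exonic sequence the most abundant transcripts were Cst3, Fabp7, Apoe and Sparcl1. Cst3 stood at 339.8 ± 7.80 CPM per kb with tunicamycin and 479 ± 27.9 with DMSO (SD, n = 6 and 4), and Fabp7 at 258 ± 19.3 with tunicamycin and 427 ± 25.3 with DMSO. Apoe was at 194 ± 4.02 CPM per kb with tunicamycin and 308 ± 22.7 with DMSO, below Sparcl1 with tunicamycin (225 ± 9.14) and above it with DMSO (268 ± 15.5). The size of the fall did not follow abundance closely. Across the 33 genes the Spearman correlation of log2 fold change with the DMSO level per kb was 0.178, and with exonic length 0.181, both as descriptions over genes that share all libraries.

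Whether related genes fell by unequal amounts was tested on the ratio of their counts within each library, which does not depend on scaling. The pairs were chosen with earlier results of these data known, so the p-values are not an independent test. Of 6 pairs, 2 passed. The log2 ratio of Slc1a2 over Slc1a3 was 0.97 ± 0.07 with tunicamycin (SD, n = 6) and 0.52 ± 0.14 with DMSO (SD, n = 4), a difference of 0.45 that was in the same direction in all 6 tunicamycin libraries (exact permutation test over 210 splits, two-sided, p = 0.00476, which no split can go below, and adjusted p = 0.0143 over 6 pairs). GLAST transcripts thus fell more than GLT-1 transcripts in these libraries. The log2 ratio of Glul over Slc1a3 was -2.61 ± 0.06 with tunicamycin and -2.26 ± 0.05 with DMSO, a difference of -0.35 without overlap (exact permutation p = 0.00476, adjusted p = 0.0143). Glutamine synthetase transcripts fell more than those of GLAST in the same libraries.

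The other 4 pairs missed the threshold after adjustment. Clu over Apoe was -1.16 ± 0.12 with tunicamycin and -1.50 ± 0.29 with DMSO, a difference of 0.34 (exact permutation p = 0.0286, adjusted p = 0.0571). That difference was unlike between lanes, at 0.04 in lane 1, 0.62 in lane 2 and 0.61 in lane 3, and it passed without DMSO replicate 1 (0.44, adjusted p = 0.0476) and without tunicamycin replicate 1 (0.37, adjusted p = 0.0317). Mlc1 over Hepacam differed by 0.11 (adjusted p = 0.129) and S100b over Gfap by -0.20 (adjusted p = 0.324), both by exact permutation. Gjb6 over Gja1 differed by -0.96 (exact permutation p = 0.186, adjusted p = 0.223), on the few Gjb6 counts given above, and by -0.11 with a pseudocount of 5 in place of 0.5. A p over the threshold does not show that 2 transcripts fell alike.

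**Figure D4:**
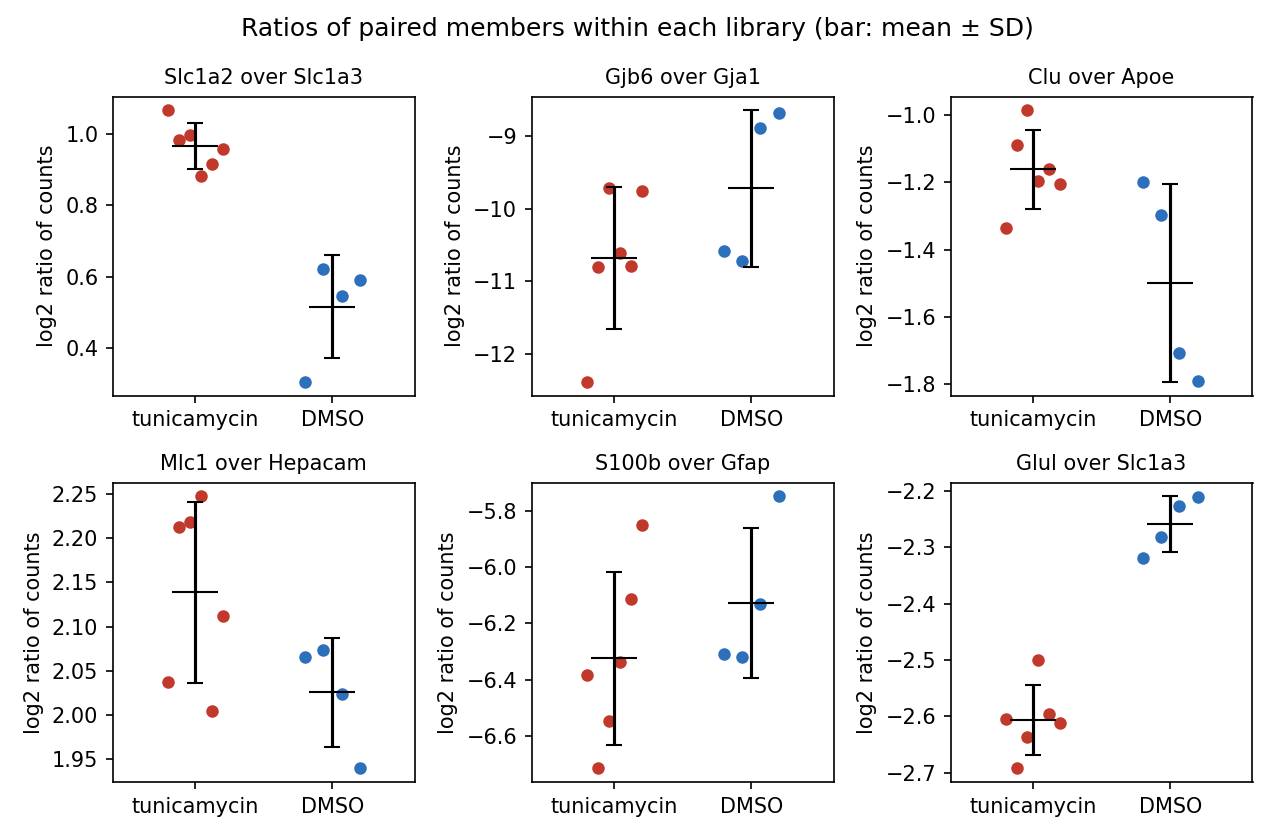
Log2 ratio of counts of 2 genes within each library, the 6 tunicamycin libraries left of the 4 DMSO libraries, with mean and SD as black bars and axes that do not start at 0. The groups lie apart for Slc1a2 over Slc1a3 and for Glul over Slc1a3, and overlap in the other 4 panels.

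Other genes of astrocytes were examined through 3 lists. Of 50 further astrocyte-enriched genes, 49 were tested, 39 were lower (79.6%, against 32.5% of all genes) and none higher. Their median was -0.45 on the log2 scale, so the fall was not limited to the 34. Lfng, a modifier of Notch receptors (log2 -1.77), and Aldoc, the brain aldolase (-0.81), had the smallest p. Kcnj10, the potassium channel Kir4.1, was at 45.1 ± 5.17 CPM with tunicamycin and 127 ± 13.2 CPM with DMSO (log2 -1.50, edgeR adjusted p = 4.9e-07), a gene picked out after its values were seen. Of 28 transcription factors of the astrocyte lineage, 14 fell (50%, against 32.5% of all genes) and 8 rose (28.6%, against 31.8%), the median being -0.13. Under upper-quartile scaling 5 rose. Id4, an inhibitor of differentiation (-1.01), and Etv5, a target of growth factor signalling (0.70), had the smallest p, and Sox9 lay close to that median.

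Genes of reactive astrocytes, the state that follows injury, moved in both directions. Of 27 tested, 9 rose (33.3%), close to the 31.8% of all genes, and 4 fell (14.8%), against 32.5% of all genes. Their median was 0.04 on the log2 scale. Osmr, the oncostatin M receptor, was at 53.6 ± 3.69 CPM with tunicamycin and 17.01 ± 0.452 CPM with DMSO (log2 1.65, edgeR adjusted p = 9.33e-17), and Ptgs2, cyclooxygenase 2, had a log2 fold change of 1.43. The 4 that fell were S1pr3 (-0.40), Serping1 (-0.55), Ggta1 (-1.005) and Fkbp5 (-0.40), and S1pr3 was no longer called without DMSO replicate 1 (edgeR adjusted p = 0.051). Vim, the filament protein that accompanies Gfap in reactive cells, was at 556 ± 55.2 CPM with tunicamycin and 567 ± 118 CPM with DMSO and did not pass (adjusted p = 0.818).

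**Figure D5:**
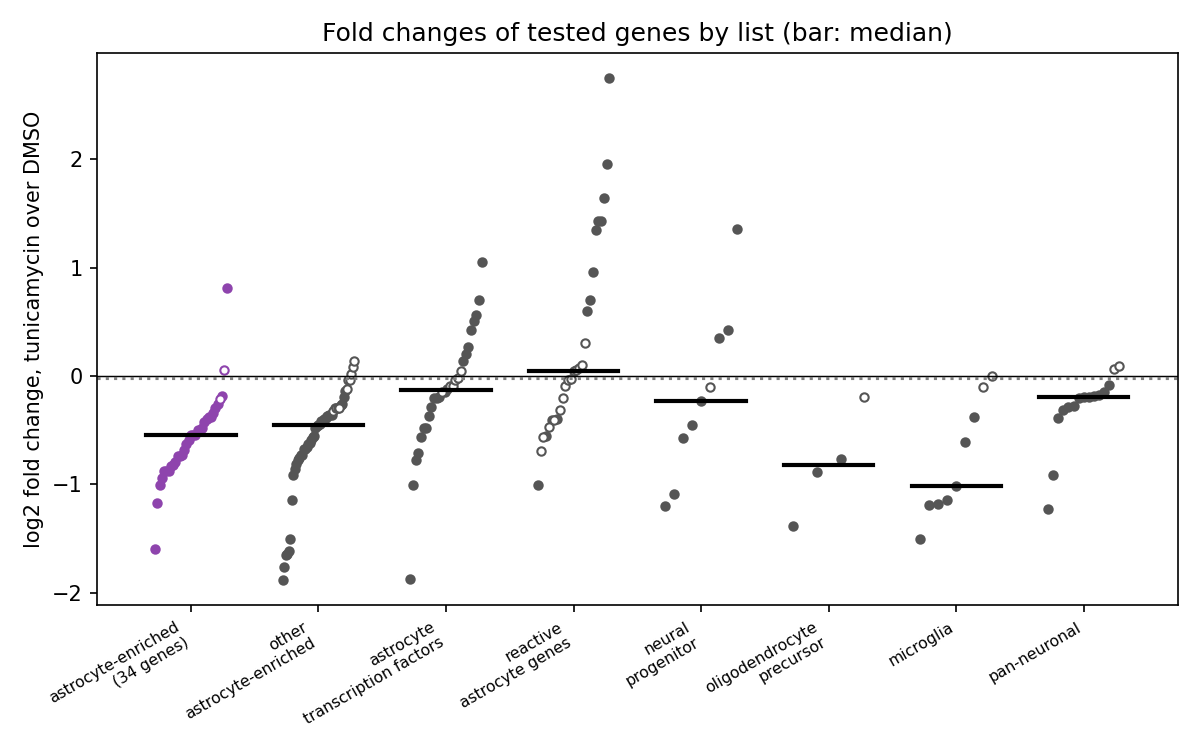
Log2 fold change (tunicamycin over DMSO, edgeR) of the tested genes of 8 lists, filled where the test was passed, with a bar at each median and a dotted line at the median of all genes. The 34 astrocyte-enriched genes (median -0.54) and the further ones (-0.45) lie mostly under 0, and reactive astrocyte genes reach from -1.005 to 2.75.

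Markers of other cells moved with treatment as well, and their part in these falls was not tested. Among 15 pan-neuronal genes 13 were lower (86.7%, against 32.5% of all genes) and none higher. Under RLE scaling, with no filter, with a mean of at least 1 CPM and without some single libraries, 1 was higher. In lane 1 alone 1 was higher and 8 were lower. The median of the 15 genes was -0.20 on the log2 scale, Nefh (-1.23) and Tubb3 (-0.92) having the smallest p. Among 9 tested microglia markers 7 were lower (77.8%, median -1.01), such as Tyrobp (-1.19) and C1qc (-1.18). Microglia also transcribe Apoe and Cst3. The 12 listed microglia markers summed to 22.9 to 27.6 CPM with tunicamycin and 31.6 to 38.0 CPM with DMSO. Itgam, P2ry12 and Tmem119 were under the expression filter. These sums do not measure how much Apoe or Cst3 came from microglia, which was not tested. Of 4 tested markers of oligodendrocyte precursors 3 fell (75%, against 32.5% of all genes), among them Olig1 (-0.88) and Cspg4 (-0.77). Progenitor genes, with which Fabp7 and Ptprz1 are shared, moved both ways. Of 9, 5 fell (55.6%, against 32.5% of all genes) and 3 rose (33.3%, close to the 31.8% of all genes). The risers were Tnc (1.36), Nes (0.42) and Sox11 (0.35), and Nes did not pass under upper-quartile scaling (edgeR adjusted p = 0.0595).

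Markers of vessels, meninges and ventricles were tested in 3 lists. Of 5 tested endothelial genes Slc2a1 (log2 0.995) and Flt1 (1.19) rose (40%, against 31.8% of all genes) and none fell. Cldn5 was at 0.0145 CPM with tunicamycin and 0.0115 CPM with DMSO. The 9 fibroblast and mural genes summed to 261.5 to 392.5 CPM with tunicamycin and 194 to 351 CPM with DMSO. Of these Fn1 (1.26) rose (11.1%, against 31.8% of all genes) and Rgs5 (-0.62) and Dcn (-0.46) fell (22.2%, against 32.5%). Of 5 tested ependymal and choroid plexus genes 3 fell (60%, against 32.5% of all genes), among them Foxj1 (-0.66) and Folr1 (-0.49). Of 5 tested oligodendrocyte genes Mog (0.46) rose and Cnp (-0.73) fell (20%, against 32.5% of all genes). Counted with Ermn, 40% rose, against 31.8% of all genes. Ermn (0.52, edgeR adjusted p = 0.0387) passed as higher too, but not under upper-quartile scaling (adjusted p = 0.101), in DESeq2 (adjusted p = 0.0726), or without any one of DMSO replicates 2, 3 and 4 and tunicamycin replicates 1, 2 and 5 (adjusted p = 0.0587 to 0.157). All 12 genes of the ER stress list rose (against 31.8% of all genes), with Ddit3 and Herpud1 (2.92) at the smallest p.

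The direction held within the sequencing lanes, read from the deposited file names. Lane 1 held 2 tunicamycin and 2 DMSO libraries, and lanes 2 and 3 each held 2 tunicamycin libraries and 1 DMSO library. The median log2 fold change of the 33 genes was -0.52, -0.74 and -0.54 in lanes 1, 2 and 3 fitted alone, and 32 of 33 kept their direction in each. The exceptions were Ptprz1 in lane 1 (0.0099) and Slco1c1 in lanes 2 and 3. Under upper-quartile scaling the median of all genes moved by -0.115, the split of all calls was 3632 higher and 6934 lower in place of 4983 higher and 5082 lower, and the median of the 33 genes was -0.66. Relative to the median of all genes it was -0.525 under both scalings. In lane 1 alone Aqp4, Ntsr2, Slc1a2 and Sox9 were no longer called, with edgeR adjusted p of 0.0746 for Aqp4, 0.0748 for Ntsr2, 0.0599 for Slc1a2 and 0.0751 for Sox9. Some falls were weaker in lane 3. The log2 fold change of Ntsr2 was -0.406, -0.448 and -0.1 in lanes 1, 2 and 3, and that of Gpr37l1 was -0.96, -1.24 and -0.369.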

How the data were processed

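The TruSeq RNA v2 chemistry (per the labels' protocols) keeps no strand, and reads were 50 bp long and single-ended. Tools named per the submitters' processing notes, with no role given, were STAR 2.5.2b, Subread 1.5.1 with featureCounts, FastQC 0.11.5 and DESeq2, with mm10 as the build. Which annotation, strand setting and rule for multiply matching reads were used is not stated there. The authors deposited whole-number counts per gene and library, without normalization, summing to 21055289 to 29234887. Their deposited tables also hold a log2 fold change, an adjusted p-value and a normalized signal per library, and only the fold changes and p-values of those tables were used.

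Identifiers were matched to GENCODE M21 (GRCm38, of which mm10 is another name), 48349 of 48709. The 360 others held 0.0462% of counts and stayed in the totals. Counts were tested with edgeR 4.0.16 (R 4.3.3; quasi-likelihood F test, robust, two-sided) on all 10 libraries with TMM and filterByExpr, which kept 15660 genes. P-values were adjusted over these by Benjamini-Hochberg and called under 0.05. The standard error is the log2 fold change divided by the square root of F. CPM are counts scaled to 1e6 per library. Ratios used log2 of counts plus 0.5. On counts simulated for this comparison over 15660 genes, 200 of them changed, 74% of changes of 1.25-fold, 96% of 1.5-fold, 98% of 2-fold and 100% of 4-fold were recovered and 11 unchanged genes were called. Simulated rises and falls were equal in number. In the data 64.3% of genes were called, so these rates may not hold there.

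The genes, lists, pairs and motifs were chosen with earlier results of these data known. All 34 genes are named, with each DMSO library and the lowest, median and highest tunicamycin library given for the highest and lowest log2 fold change of each role and for the 6 pairs, with Hspa5 and Ddit3 as a check of treatment, and of every other list the 2 genes with the smallest p and any 5 or fewer that moved against the rest. One gene that this rule names is not reported here. A gene was noted as uncertain where at least 10% of its exonic bases overlap another gene or at least 10% of its 50-base words are shared. No library repeated another, with chi-square per degree of freedom of 2.18 to 10.5 within groups. Alternatives were upper-quartile and RLE scaling, DESeq2 1.42.0, no filter, a mean of at least 1 CPM, lane as a term, a replicate block, each lane alone and leaving out each library.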

Additional observations from a re-analysis of the deposited data

Results flagged for a closer look

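In 84 groups of libraries (each of the 34 genes, 6 ratios, the summed share and the depth, in both groups) a library was set against the gap to its nearest neighbour, and 2 stood apart, where chance gives about 1 in 20 groups. Hepacam in DMSO replicate 1 was at 60.8 CPM, while the other 3 DMSO libraries were at 52.9 to 53.1 CPM. F3 in tunicamycin replicate 1 was at 13.5 CPM, while the other 5 tunicamycin libraries were at 15.1 to 15.8 CPM. Without these libraries both genes kept their call and direction.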

How the results depend on the processing

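Of the 34 genes, 29 to 31 were called lower and 1 higher under both other scalings, DESeq2, both other filters, lane as a term, the replicate block and leaving out each library. Leaving out each library gave 30 to 31 lower and a median log2 fold change of -0.608 to -0.53. That median was -0.658 under upper-quartile scaling and -0.743 in lane 2 alone. In lane 1 alone 2 genes were called higher, Slco1c1 (0.291) and F3, and 26 lower. Slco1c1, not called with all 10 libraries, was at -0.0626 under upper-quartile scaling, -0.0306 without DMSO replicate 1 (up to 0.138 without other libraries), -0.157 in lane 2 and -0.129 in lane 3. Ptprz1 was at 0.0099 in lane 1 alone, -0.356 in lane 2 and -0.389 in lane 3, and Folr1 was at 0.0666 in lane 2 alone. Vim, not called with all 10 libraries, was at 0.00235 with the replicate block. It was at 0.0981 without DMSO replicate 1 (down to -0.12 without other libraries), 0.233 in lane 2 and 0.213 in lane 3. Of the genes named from other lists, Ermn was no longer called under upper-quartile scaling, in DESeq2, with the replicate block, in each lane alone, on the 8 libraries numbered 1 to 4 and without some libraries, Nes under upper-quartile scaling, S1pr3 without DMSO replicate 1, S1pr3 and Serping1 on those 8 libraries, Dcn, Folr1, S1pr3 and Serping1 with the replicate block, Cspg4, Dcn, Nes and Rgs5 in lane 1 alone, Fn1, Mog, S1pr3 and Serping1 in lane 2 alone, and Flt1, Folr1 and Tyrobp in lane 3 alone. The cause of these changes was not tested. Lanes 2 and 3 hold 1 DMSO library each, which is assumed to vary like the tunicamycin libraries.

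For the ratios, Slc1a2 over Slc1a3 was 0.562 in lane 1 and 0.347 in lane 3 and 0.381 to 0.487 with 1 library left out. Glul over Slc1a3 was -0.369 to -0.331, and Clu over Apoe 0.239 to 0.437, with 1 library left out. Clu over Apoe was 0.0362 in lane 1, 0.617 in lane 2 and 0.608 in lane 3, and Mlc1 over Hepacam 0.208 in lane 2.

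No sign was seen that equal replicate numbers mark paired libraries. Same-numbered libraries had correlations of their deviations of -0.466, 0.0859, -0.152 and -0.227, and differently numbered ones -0.379 to 0.468. With so few libraries this cannot settle whether cultures were paired. With the replicate block on the 8 libraries numbered 1 to 4, 29 genes were called lower (Clu no longer, adjusted p = 0.0507) and 1 higher, and without it, an alternative added after the data were seen, 30 and 1. With the block Slc1a2 over Slc1a3 was 0.466 and Glul over Slc1a3 -0.349, with adjusted p = 0.188 for both, in a sign-flip test of 4 pairs that cannot go below an unadjusted p of 0.125. Depth limits Gjb6, which had 7 counts or fewer in every library.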
